A study of Mus musculus with 34 samples.

Results

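Cxcl10 was measured in well C8 of a real-time PCR array, 1 of the 84 array wells, in lung RNA of 34 female C57BL/6 mice (C57BL/6J in the methods of the study) with 1 array per mouse. The deposited values give well positions and no gene names, so the gene was assigned where the authors' fold changes of a well gave the difference between O3 and FA follicular mice that the paper prints for Cxcl10, within 0.001, and C8 was the only well that did so. The same match, for O3 against FA in either phase, named 17 wells in all, which ran in alphabetical order of gene along the plate, and the other 67 wells carry no name here. The name of the well therefore rests on the O3 against FA contrast of the follicular phase, and that contrast is given here as a description of a gene the study had already listed.

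Mice 8 weeks old breathed 2 ppm ozone (O3) or filtered air (FA) during 3 h, each at a known stage of the estrous cycle, and whole lungs were collected 4 h after exposure. The follicular phase comprised proestrus (6 FA and 5 O3 mice) and estrus (6 FA and 3 O3 mice), and the luteal phase comprised metestrus (4 FA and 3 O3 mice) and diestrus (4 FA and 3 O3 mice). All mice were females of 1 strain, the FA mice were the only controls, and each group was sampled at a single time. The tissue was a homogenate of the whole lung, in which more RNA per cell and more cells that carry the RNA cannot be told apart, and with 67 wells unnamed no marker of lung cell types could be checked.

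Cxcl10 encodes a small secreted chemokine, also known as interferon gamma-induced protein, which signals through the receptor Cxcr3 and attracts activated T cells and natural killer cells. Its gene is a classical target of interferons, through signal transducers that bind interferon-stimulated response elements, and of NF-kB, which acts downstream of Toll-like receptors and of cytokines such as tumor necrosis factor. In the lung it can be made by airway and alveolar epithelial cells, macrophages, fibroblasts and endothelial cells.

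The 250 bases before the annotated start of Cxcl10 are shown because the elements through which the gene is known to be controlled lie there. In the RefSeq annotation of GRCm38.p6, Cxcl10 is a protein-coding gene of 2252 bases on the minus strand of chromosome 5, from 92346638 to 92348889, and the bases below are the adjoining window chr5:92348890-92349139, read 5′ to 3′ on the minus strand. Capitals mark motif matches, in order an interferon-stimulated response element core, a pair of NF-kB motifs and an AP-1 motif.
Cxcl10 promoter: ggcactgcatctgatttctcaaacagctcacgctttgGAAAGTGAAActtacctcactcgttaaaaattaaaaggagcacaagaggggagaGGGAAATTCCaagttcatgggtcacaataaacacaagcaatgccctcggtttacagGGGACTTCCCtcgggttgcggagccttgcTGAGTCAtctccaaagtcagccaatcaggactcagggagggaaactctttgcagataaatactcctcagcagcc

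The interferon element core (GAAA, any 2 bases, GAAA) lay at bases -213 to -204 from the start, the NF-kB motifs at -159 to -150 and at -103 to -94, and the AP-1 motif (TGAGTCA) at -74 to -68. Both strands were searched, and no 2 of the matches overlap. Among 32851 RefSeq promoter windows, 2.98% held the interferon element core, 3.90% an NF-kB motif and 4.46% the AP-1 motif, and 2 windows (0.006%) held all 3. Of the 17 named genes, 11 had a window. The interferon element core was found in those of Cxcl10 and Myd88, an NF-kB motif in 8 (Ccl20, Cxcl1, Cxcl10, Cxcl2, Fos, Il1r1, Il6 and Ltb), and the AP-1 motif in those of Cxcl10 and Il6. The motifs searched were those of elements known to control Cxcl10, so its place among the windows with all 3 was fixed in advance. A match is a run of letters and not a measured binding site.

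The arrays were not uniform. Threshold cycles (Ct, the PCR cycle at which a signal crosses a set level, lower for more RNA) had 3 decimals in 22 mice, 6 decimals in 8 and more in the remaining 4, which the labels number 31 to 34. The last 4 have the form of means: after multiplication by 2, 100% of the Ct values of mice 31 and 33 had at most 6 decimals, and after multiplication by 3 this held for 98.8% and 96.4% of those of mice 32 and 34. All 6 O3 luteal mice were in the 3-decimal format, against 3 of 8 O3 follicular, 8 of 12 FA follicular and 5 of 8 FA luteal mice, so results are also given within a format. Mice 32, 33 and 34 stood apart in the mean Ct of wells H10 to H12, where arrays of this type carry positive PCR controls. It was 27.5 in mouse 33 (FA diestrus replicate 2) and 23.6 in mouse 32 (FA proestrus replicate 1). Mouse 34 (O3 estrus replicate 1) was at 23.1, mouse 31 at 19.9, and the 3-decimal mice at 19.9 to 21.3.

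A Ct was obtained for Cxcl10 in 34 of 34 mice, so no level of Cxcl10 was imputed. Expression is given as -ΔCt, in which the Ct of Cxcl10 is subtracted from the mean Ct of the authors' 4 reference wells, a log2 scale on which higher values mean more RNA relative to the reference wells. In proestrus, the 5 O3 mice were at -6.20, -5.92, -5.40, -4.85 and -4.79, and the 6 FA mice ran from -8.71 to -6.91 with a median of -7.82. In estrus, the O3 mice were at -6.32, -6.13 and -4.96, and the 6 FA mice ran from -9.44 to -6.66 with a median of -8.76. The O3 mouse at -4.96 was mouse 34. Its reference well H2 lay 3.00 cycles from the mean of its 4 reference wells, against -1.09 and -0.495 in the other O3 estrus mice. The part of this well in the level of this mouse was not tested, and the estrus difference with H2 left out is given below. Every O3 mouse of these 2 stages was above every FA mouse of its stage. In metestrus, the O3 mice were at -7.67, -6.75 and -6.28 and the FA mice at -9.34, -8.78, -8.66 and -6.92, so that 2 of 3 O3 mice were above every FA mouse. In diestrus, the O3 mice were at -6.95, -6.47 and -6.43 and the FA mice at -8.08, -7.92, -7.90 and -5.27, so that no O3 mouse was above FA diestrus replicate 2 and each was above the other FA mice.

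**Figure D1:**
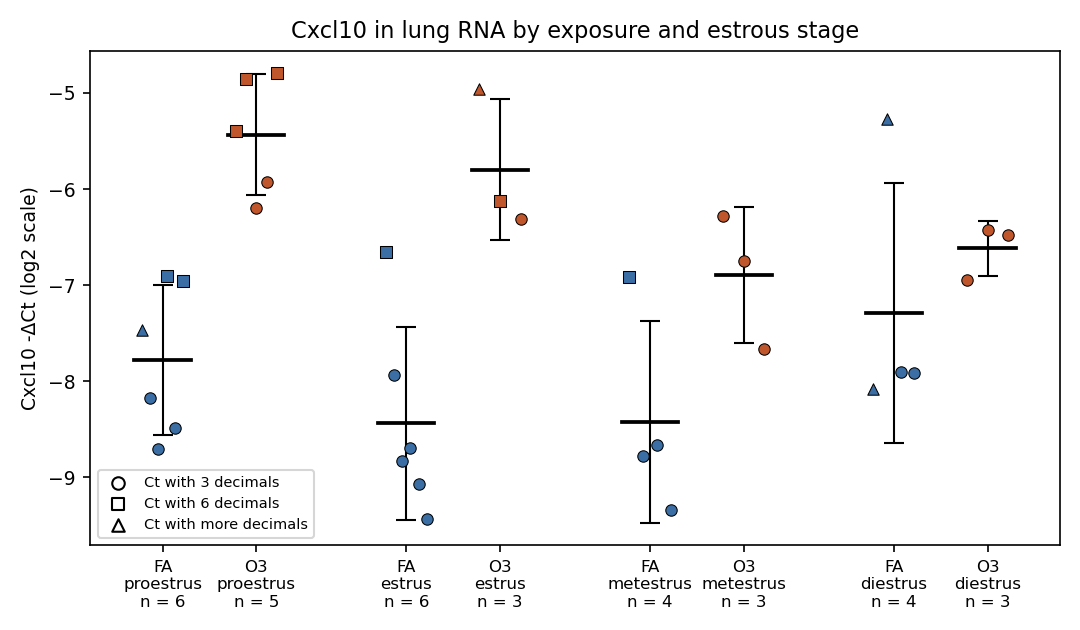
Expression of Cxcl10 (vertical axis, -ΔCt on a log2 scale) in each of 34 mice, grouped by exposure (FA blue, O3 orange) and estrous stage. Horizontal bars are group means, whiskers are 1 SD, and the marker shape gives the number of decimals of the Ct values of the mouse. The O3 mice of proestrus and estrus sit above every FA mouse of the same stage, whereas FA diestrus replicate 2, at -5.27, is above the O3 mice of diestrus.

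From the highest to the lowest, mean -ΔCt was -5.43 ± 0.628 (SD, n = 5) in O3 proestrus, -5.80 ± 0.735 (n = 3) in O3 estrus, -6.62 ± 0.288 (n = 3) in O3 diestrus, -6.90 ± 0.707 (n = 3) in O3 metestrus, -7.29 ± 1.35 (n = 4) in FA diestrus, -7.78 ± 0.780 (n = 6) in FA proestrus, -8.43 ± 1.05 (n = 4) in FA metestrus and -8.44 ± 1.0 (n = 6) in FA estrus mice. All 4 O3 means were above all 4 FA means. None of the 7 steps between neighbours in this order passed a false discovery rate (FDR) of 0.05 (limma, adjusted p from 0.490 to 0.984).

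Cxcl10 was higher after O3 in the mean over the 4 stages, by 1.8 on the log2 scale (standard error 0.316, 95% interval 1.15 to 2.45, limma adjusted p = 4.32e-05), or 3.48-fold, and 33.3% of the 84 wells passed FDR 0.05 in that contrast. This call was kept in each of the 34 fits that left out 1 mouse, where the difference ran from 1.69 to 1.97, and was 1.84 with the Ct format as a term. In proestrus Cxcl10 rose 5.10-fold, or by 2.35 in log2 units (limma adjusted p = 0.00157, standard error 0.537), where 14.3% of wells passed and 10.7% had every O3 mouse above every FA mouse. In estrus it rose 6.23-fold, or by 2.64 (standard error 0.627, limma adjusted p = 0.00330), where again 14.3% of wells passed and 16.7% had no overlap. The proestrus and estrus mice are those of the contrast that named the well, and they also enter the mean of the 4 stages, so none of these 3 tests is independent of the naming. With reference well H2 or H3 alone, the proestrus difference was 2.11 and 2.14 and did not pass (limma adjusted p = 0.107 and 0.0626), and with H3 alone the estrus difference was 2.35 and did not pass (limma adjusted p = 0.111). With H2 alone the estrus difference was 3.62 and passed (limma adjusted p = 0.00569). With H2 left out of the reference wells the estrus difference was 2.31 and passed (limma adjusted p = 0.00807). Without O3 estrus replicate 1, mouse 34 of the labels, the difference in estrus was 2.22 and was not past the threshold (adjusted p = 0.0638).

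Between O3 and FA mice the values differed by 1.53 on the log2 scale (standard error 0.677, 95% interval 0.14 to 2.92, limma adjusted p = 0.183) in metestrus and 0.67 (standard error 0.677, 95% interval -0.71 to 2.06, limma adjusted p = 0.625) in diestrus, so neither passed in the fit of all 34 mice, while 7.14% of wells did in metestrus and 11.9% in diestrus. With the Ct format as a term the values were 1.88 in metestrus (adjusted p = 0.00775) and 1.34 in diestrus (adjusted p = 0.0773). In the 3-decimal mice they were 2.03 (adjusted p = 0.00339) and 1.29 (adjusted p = 0.0611). With 3 mice against 4, an exact permutation test cannot give a two-sided p below 0.0571, and it gave 0.114 in metestrus and 0.571 in diestrus. The difference between O3 and FA was not shown to vary among the 4 stages (F = 1.89, limma adjusted p = 0.719, 0.0% of wells past the threshold and 6 with an unadjusted p under 0.05).

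By phase, the 8 O3 follicular mice ran from -6.32 to -4.79 (median -5.66) and the 12 FA follicular mice from -9.44 to -6.66 (median -8.33), with no overlap. The log2 difference was 2.54 (standard error 0.413, 95% interval 1.7 to 3.38, limma adjusted p = 8.15e-06), or 5.81-fold, and the exact permutation test gave 1.59e-05, the smallest two-sided p of the design. In this phase 22.6% of wells passed FDR 0.05, and 8.33% of wells had groups without overlap. Because the name of the well came from this contrast, nothing is read from these tests and shares. The same holds for the tests within a format that follow. Within the 3-decimal mice, all 3 O3 follicular mice were above the 8 FA follicular mice (difference 2.52, exact permutation p = 0.0121, with 16.7% of wells free of overlap in this direction), and within the 6-decimal mice all 4 were above the 3 FA mice (difference 1.55, exact permutation p = 0.0571, the smallest that 4 against 3 allows, with 21.4% of wells free of overlap).

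The luteal phase was not used to name Cxcl10. The 6 O3 luteal mice ran from -7.67 to -6.28 (median -6.61) and the 8 FA luteal mice from -9.34 to -5.27 (median -8.00). The log2 difference was 1.10 (standard error 0.489, 95% interval 0.11 to 2.10, limma adjusted p = 0.0967), or 2.15-fold, which did not pass FDR 0.05, whereas 21.4% of wells did. The exact permutation test gave p = 0.0719. None of the 6 O3 mice was above every FA mouse, since the highest of all luteal mice was FA diestrus replicate 2. Without that mouse the difference was 1.47 (standard error 0.428, limma adjusted p = 0.0119), with 28.6% of wells past the threshold. Without mice 31 to 34 it was 1.5 (limma adjusted p = 0.0137), with 34.5% of wells past it.

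Among mice in the 3-decimal format, the 6 O3 luteal mice were above all 5 FA luteal mice, which ran from -9.34 to -7.90. There the log2 difference was 1.76 (standard error 0.309, limma adjusted p = 0.000233), or 3.40-fold, with an exact permutation p of 0.00433, the smallest of that design. In that subset 28.6% of wells passed FDR 0.05 and 10.7% had every O3 mouse above every FA mouse. With all 34 mice and the Ct format as a term, the difference was 1.67 (standard error 0.354, limma adjusted p = 0.000544), with 29.8% of wells past the threshold. The call for the luteal phase thus depended on how the mice of other formats entered the fit. It also depended on the reference: with H5 alone and all mice the difference was 1.04 and passed (limma adjusted p = 0.0440).

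Whether the increase differed between phases was tested as the interaction of exposure and phase. The follicular difference exceeded the luteal one by 1.44 on the log2 scale (standard error 0.640, 95% interval 0.13 to 2.74, limma adjusted p = 0.207). The interaction contains the follicular contrast that named the well, so it is not independent of the naming. No well passed FDR 0.05 for this term (0.0%), and 19 of 84 (22.6%) had an unadjusted limma p under 0.05. The estimate was 0.45 (standard error 0.473, adjusted p = 0.689) with the Ct format as a term and 0.76 (standard error 0.464, adjusted p = 0.837) in the 3-decimal mice. Entered as a term, a format shifts all groups by the same amount. In -ΔCt, the 6-decimal mice were above the 3-decimal mice by 1.75 in FA and 0.85 in O3 follicular mice. All O3 luteal mice had 3 decimals, and the effect of a shared shift on the estimate was not tested. The estimate was 1.07 without FA diestrus replicate 2. On the raw Ct, with no reference wells subtracted, it was 2.50 (adjusted p = 0.00171), where 10.7% of wells passed. The size of the phase difference in the response of Cxcl10 thus ranged between 0.45 and 2.50 over the settings run on a log2 scale.

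**Figure D2:**
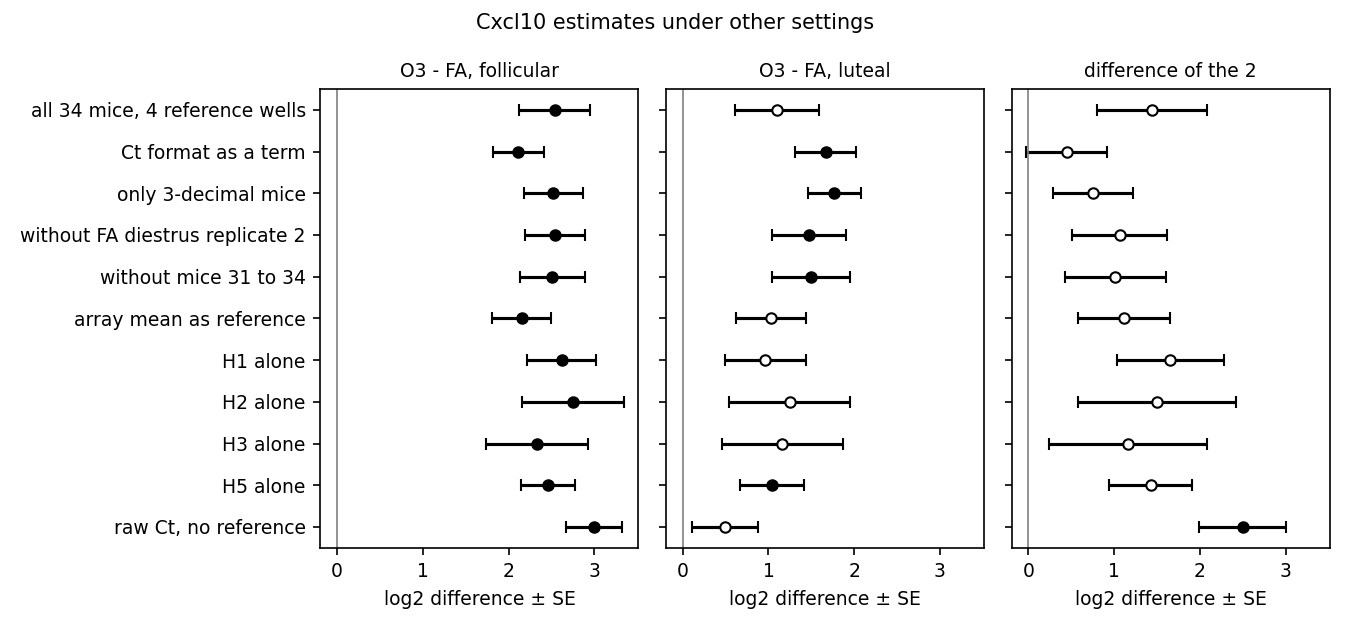
Log2 difference of Cxcl10 between O3 and FA mice in the follicular phase (left), in the luteal phase (middle), and the first minus the second (right), under 11 settings, with bars of 1 standard error. Filled points passed FDR 0.05 over 84 wells in limma. The follicular estimate passed in each row, the luteal estimate ran from 0.49 on the raw Ct to 1.76 in the 3-decimal mice, and the phase difference passed in the raw Ct row alone.

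Among O3 mice, Cxcl10 was higher in the follicular than in the luteal phase by 1.19 (standard error 0.489, 95% interval 0.19 to 2.18, limma adjusted p = 0.111), and 7 of the 8 follicular mice were above every luteal mouse. The exact permutation test of this gene alone gave p = 0.00133, and 8.33% of wells passed FDR 0.05 in the limma fit. The O3 follicular mice also belong to the contrast that named the well, so these tests are not independent of the naming. Within the 3-decimal mice, 2 of 3 follicular mice were above every luteal mouse, and the difference was 0.61 (exact permutation p = 0.0476, limma adjusted p = 0.597). With the Ct format as a term it was 0.27 (limma adjusted p = 0.738). That term gives FA and O3 mice of a format the same shift. All 6 O3 luteal mice share 1 format, and the part of the format in this difference was not tested further.

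In FA mice, Cxcl10 in the follicular phase was lower than in the luteal phase by 0.25 (difference -0.25, standard error 0.413, 95% interval -1.09 to 0.59, limma adjusted p = 0.982), and 0.12 higher without FA diestrus replicate 2. The interval leaves room for a difference of up to 1.09. The 4 stages did not differ past the threshold in FA mice (F = 1.76, limma adjusted p = 0.996) or in O3 mice (F = 2.2, limma adjusted p = 0.447), and 0.0% and 2.38% of wells passed in these contrasts.

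The level of Cxcl10 relative to the reference wells moved with the Ct format in FA mice. The 4 FA mice in the 6-decimal format were at -6.96, -6.92, -6.91 and -6.66, and the 13 in the 3-decimal format ran from -9.44 to -7.90 with a median of -8.70. The groups did not overlap, and differed by 1.75 or 3.37-fold (exact permutation p = 0.000840, the smallest of the design). The median difference over the 84 wells was 0.147, 69 wells differed by less, and in 13.1% of wells every 6-decimal mouse was above every 3-decimal mouse. Among O3 follicular mice the 6-decimal mice were 0.85 higher than the 3-decimal mice for Cxcl10, against a median of 0.258 over the wells. The mean Ct of H10 to H12 had a median of 19.4 in the 6-decimal mice and 20.6 in the 3-decimal mice. The 4 FA mice with 6 decimals came from 3 stages, with 1 to 2 mice in each. Before normalization their Cxcl10 Ct was 28.1, 28.9, 29.2 and 29.8, within the 27.8 to 29.9 of the 3-decimal FA mice. Their reference means were 21.2, 22.0, 22.2 and 23.2 in the same order, against 18.6 to 21.4 in the 3-decimal FA mice.

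The raw Ct of Cxcl10 varied less among FA mice than the reference wells that normalize it. In the 20 FA mice the Cxcl10 Ct lay between 27.7 and 29.9, a span of 2.21 cycles, while the reference mean lay between 18.6 and 23.2, a span of 4.64 cycles. The Cxcl10 Ct rose by 0.26 cycles per cycle of the reference, against a median slope of 0.88 over the 58 wells with a Ct in every mouse, and 1 of those wells had a lower slope. In the 13 FA mice with 3 decimals the slope was 0.55 against a median of 0.98, again with 1 well lower. In the 14 O3 mice it was 0.92 against 0.95, with 26 wells lower. These slopes are across mice whose points share input RNA and plate, and are given without a test.

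In the same FA mice, the SD of -ΔCt was 1.05, larger than the SD of 0.661 of the Cxcl10 Ct itself. By group, the raw Ct was 25.99 ± 0.545 (SD, n = 8) in O3 follicular, 28.99 ± 0.612 (n = 12) in FA follicular, 27.96 ± 0.561 (n = 6) in O3 luteal and 28.45 ± 0.636 (n = 8) in FA luteal mice, and the reference mean was 20.42 ± 0.687, 20.88 ± 1.14, 21.20 ± 0.898 and 20.59 ± 1.29. The reference Ct was thus higher in O3 than in FA mice of the luteal phase and lower in O3 than in FA mice of the follicular phase. Both differences were smaller than the SD of each of these groups. Before normalization the luteal difference was 0.49 cycles and the follicular difference 2.99 cycles. In FA diestrus replicate 2 the Cxcl10 Ct of 27.7 was the second lowest of the FA mice, and the reference mean of 22.4 the second highest.

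**Figure D3:**
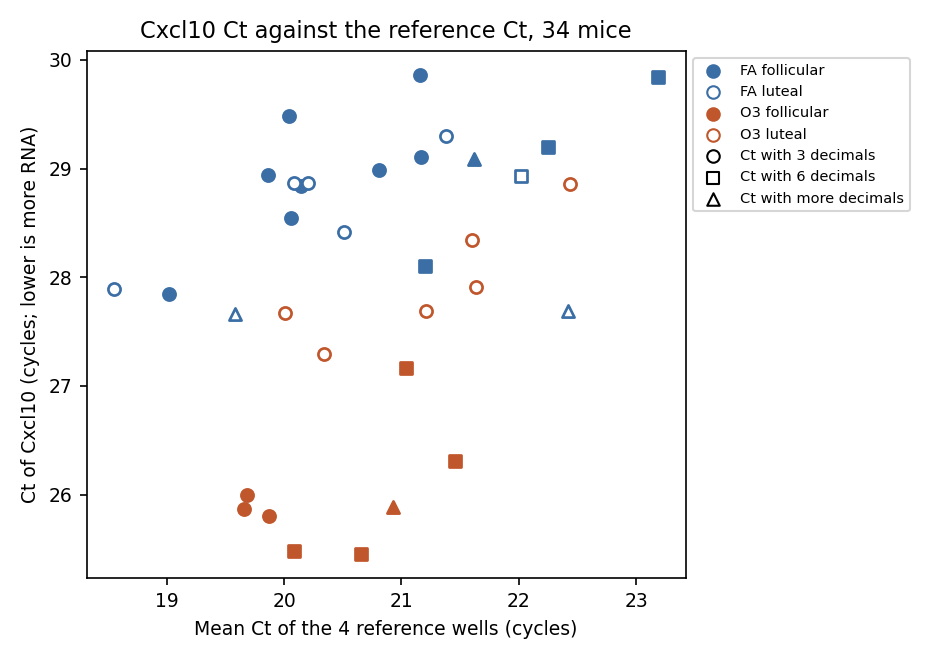
Ct of Cxcl10 (vertical axis, cycles, lower for more RNA) against the mean Ct of the 4 reference wells (horizontal axis, cycles) in 34 mice. Color gives the exposure, filled points are follicular and open points luteal mice, and the shape gives the number of decimals of the Ct. The 20 FA mice lie between 27.7 and 29.9 on the vertical axis across reference values from 18.6 to 23.2, and the 8 O3 follicular mice lie below them, between 25.5 and 27.2.

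Cxcl10 was compared with the other 16 named genes, 8 of which encode chemokines. These 16 were also selected by the study from these arrays, so their direction is not independent evidence. In the follicular phase 8 of 8 other chemokine genes were higher after O3 with FDR under 0.05, with a median log2 difference of 3.12 against 0.29 over all 84 wells, of which 19.0% rose and 3.57% fell. In the luteal phase 4 of 8 were, with a median of 1.74 against -0.12, and 11.9% of the 84 wells rose and 9.52% fell. The 4 that passed were Ccl20, which attracts dendritic cells and lymphocytes through Ccr6 (6.95), the neutrophil attractants Cxcl5 (4.01) and Cxcl2 (2.83), and Ccl17, a ligand of Ccr4 (1.60). A Ct of 40 was imputed for Ccl20 in 3 and for Cxcl5 in 5 FA mice. The luteal values of the 4 that did not pass were 1.88 for Cxcl1 (a Ct of 40 imputed in 1 FA and 1 O3 mouse), 1.02 for the eosinophil attractant Ccl11, and 0.95 and 0.42 for the monocyte attractants Ccl2 and Ccl7, beside 1.10 for Cxcl10.

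By stage, 6 of the 8 other chemokine genes rose in proestrus, 7 in estrus, 3 in metestrus and 3 in diestrus, and none fell, while of all 84 wells 11.9%, 14.3%, 7.14% and 5.95% rose. In metestrus and diestrus these were Ccl20, Cxcl2 and Ccl17 each time. Ccl2 gave differences of 2.14, 2.26, 1.37 and 0.53 in proestrus, estrus, metestrus and diestrus, and Cxcl10 gave 2.35, 2.64, 1.53 and 0.67 in the same order. Ccl11 gave 3.19, 3.31, 1.89 and 0.16. For these 3 genes the first 2 stages passed FDR 0.05 and the last 2 did not. The contrasts share the same mice in every gene.

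**Figure D4:**
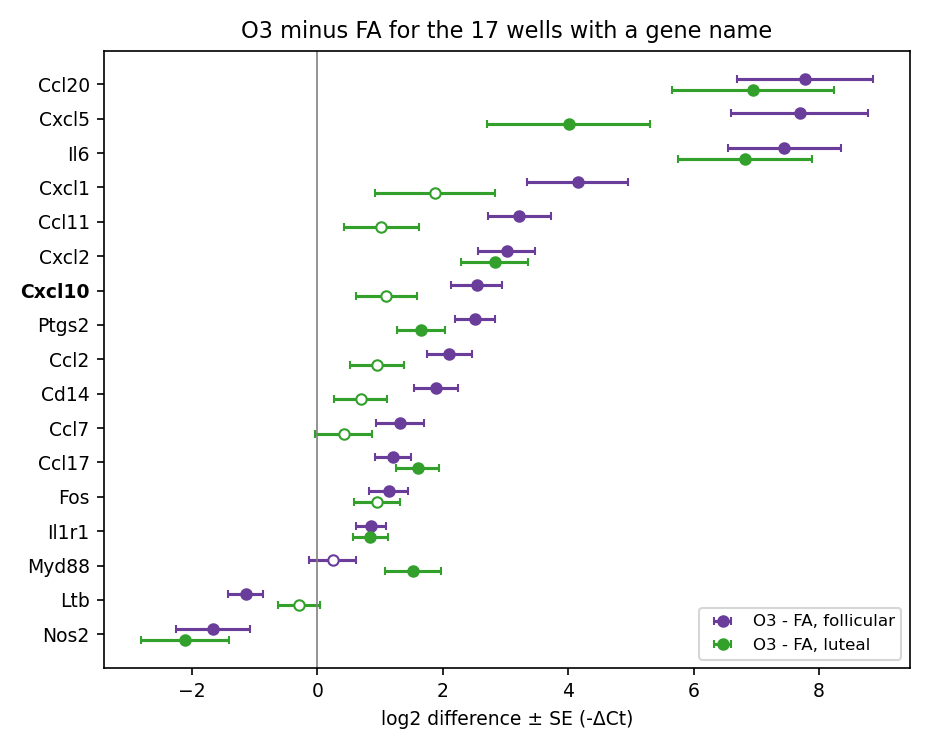
Log2 difference in -ΔCt between O3 and FA mice (horizontal axis, bars of 1 standard error) for the 17 wells with a gene name, in the follicular (purple) and the luteal phase (green). Filled points passed FDR 0.05 over 84 wells in limma. Cxcl10, at 2.54 and 1.10, is the seventh highest of the 17 in the follicular phase, and genes such as Cxcl2 and Il6 passed in both phases.

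Of the 3 genes of sensing and receptors, Cd14, a co-receptor for bacterial products, and Il1r1, the receptor for interleukin-1, rose in the follicular phase (1.89 and 0.86), where 19.0% of all wells rose, while Myd88, the adaptor of Toll-like and interleukin-1 receptors, did not pass there (0.25) and rose in the luteal phase (1.52), as did Il1r1 (0.85), where 11.9% of all wells rose. In proestrus and in estrus 1 of 3, Cd14, rose; in metestrus 1 of 3, Il1r1, rose, and in diestrus none did. Of the 5 other regulated genes, the cytokine Il6, the prostaglandin synthase Ptgs2 and the AP-1 subunit Fos rose in the follicular phase, and the inducible nitric oxide synthase Nos2 and the lymphotoxin gene Ltb fell. In the luteal phase Il6 and Ptgs2 rose (6.81 and 1.65) and Nos2 fell by 2.11. By stage, 2, 2, 2 and 1 of the 5 rose in proestrus, estrus, metestrus and diestrus, against 11.9%, 14.3%, 7.14% and 5.95% of all wells. Ltb fell in proestrus, where 2.38% of wells fell, and Nos2 in diestrus, where 5.95% did. A Ct of 40 was imputed for Il6 in 12 FA mice and for Nos2 in 1 O3 mouse. None of the 16 genes passed FDR 0.05 for the interaction of exposure and phase or between the phases in FA mice, and Cxcl1 and Cxcl5 were higher in follicular than in luteal O3 mice (3.12 and 4.69).

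Across the 34 mice, the well most like Cxcl10 was that of Cxcl5, an epithelial chemokine that attracts neutrophils (Pearson r of -ΔCt 0.860, Spearman rho 0.842). The next were Ccl17 (r 0.752), Ccl20 (r 0.746), the unnamed well F12 (r 0.744) and Fos (r 0.738). The median r over the 83 other wells was 0.189. All -ΔCt values of a mouse share its reference wells, and with the mean Ct of 55 array wells as the reference in their place the r of these 5 wells was 0.859, 0.620, 0.727, 0.618 and 0.592, with a median of -0.06 over the wells. Within the 20 FA mice the r was 0.654 for Cxcl5, 0.624 for Ccl17, 0.365 for Ccl20, 0.749 for F12 and 0.579 for Fos, with a median of 0.258. Within the 14 O3 mice it was 0.824 for Cxcl5, 0.217 for Ccl17, 0.535 for Ccl20, 0.726 for F12 and 0.389 for Fos, with a median of 0.404. The unnamed well F5, singled out after its values were seen, had the highest r of the 83 wells within each exposure, 0.822 in FA and 0.883 in O3 mice, and 0.553 over all 34 mice. These r values are a description over mice that share plates and reference wells, and no test was made of them.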

How the data were processed

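The authors deposited raw threshold cycles (Ct, a score in cycles, not normalized) of 34 mice, from 400 ng of lung RNA per mouse on a PCR array, and a table of fold changes (a linear ratio). The deposited fold changes were all recovered (100%, within 0.001) when undetermined wells were set to a Ct of 36 and H1, H2, H3 and H5 served as the reference. Molecule numbers are unknown.

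Here expression was -ΔCt, with 40 cycles for the 237 of 2856 array values (8.30%) that were undetermined, none of them of Cxcl10. Using limma 3.58.1 (R 4.3.3), 8 means of exposure by stage, or 4 of exposure by phase, were estimated from all mice and tested two-sided, with Benjamini-Hochberg adjustment over 84 wells, and checked on simulated data. Exact permutation tests were two-sided. Intervals are 95%. Python 3.11.15, scipy 1.17.1 and matplotlib 3.10.9 were used. Cxcl10 was described in full, with the other wells named by the match grouped in 3 lists, and the 5 wells with the highest Pearson r. The gene, the lists and the tests were chosen with earlier results of these data known. Alternatives were other reference wells, other treatment of wells with no Ct, a filter on low wells, the authors' fold changes, the Ct format, subsets of mice, limma options and a replicate block. The raw Ct was added after seeing the data. In the main fits, replicate numbers were not used to pair mice.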

Additional observations from a re-analysis of the deposited data

Results flagged for a closer look

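FA diestrus replicate 2 had the highest -ΔCt of Cxcl10 among the FA mice, -5.27, against -7.90, -7.92 and -8.08 in the other 3 FA diestrus mice. Its gap to the nearest mouse was 0.938 of the range of the group, above the critical value of 0.829 for 4 samples. Chance flags about 1 in 20 groups, and this was the only group of those tested in which a mouse was set apart. The groups tested overlap, since stages and phases share mice. Among the 8 FA luteal mice, FA diestrus replicate 2 was again the highest but was not past the critical value (0.404 against 0.526). In the same mouse the mean Ct was 27.5 in wells H10 to H12 and 26.7 in wells H7 to H9, the reference mean was 22.4, and 9 array wells had no Ct. The part of these values in the level of Cxcl10 was not tested.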

How the results depend on the processing

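Of 13 results, the increase in the mean of the 4 stages (1.55 to 2.06) and in the follicular phase (1.55 to 2.99) passed FDR 0.05 in every limma setting run. Both contain the follicular mice whose contrast named the well, so their passing is not independent evidence. The same mice enter the phase interaction and the difference between the phases after O3. With each mouse left out in turn, the differences ran from 2.17 to 2.54 in proestrus, 2.22 to 2.99 in estrus, 1.22 to 2.03 in metestrus, 0.41 to 1.35 in diestrus, 2.42 to 2.67 in the follicular and 0.89 to 1.47 in the luteal phase, 1.07 to 1.65 for the phase interaction, 1.0 to 1.29 between the phases after O3 and -0.46 to 0.12 after FA. Calls were lost in proestrus with H2 alone (2.11, adjusted p = 0.107) or H3 alone (2.14, 0.0626), and in estrus with H3 alone (2.35, 0.111), with the 6-decimal mice alone (0.53, 0.606, only 1 O3 against 1 FA mouse, each assumed to vary like the other groups) and without O3 estrus replicate 1. Calls were gained in metestrus (1.88 with the Ct format as a term, 2.03 in the 3-decimal mice) and in the luteal phase (1.67 and 1.76 in these, 1.04 with H5 alone, 1.5 without mice 31 to 34, and 1.47 without FA diestrus replicate 2). They were also gained on the raw Ct for the interaction (2.50), between the phases after O3 (1.97) and among the O3 stages (F = 7.97, adjusted p = 0.0192). The difference between the phases after O3 also passed with H1 alone (1.44), with H5 alone (1.24), in a fit of the O3 mice alone (1.19) and as the authors' linear fold changes (3.58). For the same difference the exact permutation test gave p = 0.00133, for this gene alone and not adjusted over the wells. The difference between the phases in FA mice changed sign without FA diestrus replicate 2 (0.12), in the 6-decimal mice (0.0743, 3 follicular against 1 luteal mouse, the lone one assumed to vary like the rest) and without mice 31 to 34 (0.0852). The cause was not tested in any of these.

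With the replicate number as a block, no call for Cxcl10 changed: the difference was 2.47 in the follicular phase, 1.01 in the luteal phase and 1.46 for the interaction. Same-numbered mice had a median r of 0.064 over 98 pairs of deviations (from -0.60 to 0.60), against -0.0249 for other pairs. In 12 of 34 mice the best match in another group had the same number. The number also went with the Ct format: replicate 1 had more than 3 decimals in each group except O3 diestrus and O3 metestrus. Apart from the fits with 1 mouse left out, the wells past FDR 0.05 ranged from 4 to 22 in proestrus and 3 to 17 in estrus. They ranged from 0 to 11 in metestrus, 0 to 15 in diestrus and 12 to 38 in the mean of the stages. The ranges were 10 to 30 in the follicular phase, 3 to 29 in the luteal phase and 0 to 9 for the interaction. They were 0 to 18 between the phases after O3, 0 to 8 among the O3 stages, and 0 to 1 among the FA stages and for exposure by stage. With 1 mouse left out, the count in diestrus ran from 6 to 18. The 6-decimal mice lacked groups for the other contrasts. Reported counts of wells with no call, 0 in each case, were for the interaction (19 wells with an unadjusted limma p under 0.05), the phases in FA mice (5), the stages in FA mice (3) and exposure by stage (6). No dilution series was used here, so the amplification efficiency behind a cycle is unknown.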
